A study of Solanum tuberosum with 12 samples.

Results

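The comparison covered tuber periderm of the *StRIK*-RNAi line 47 and of Wild type potato (*Solanum tuberosum* cv. Désirée), with 3 libraries of each, which are 6 of the 12 libraries of the series. These 6 libraries were chosen by their labels alone. Line 47 plants carried a hairpin RNAi transgene against *StRIK*, all came from 1 transformation event, and the Wild type plants carried no transgene according to their label. Plants of both genotypes were grown in soil with 12 h of light and 12 h of dark, and the skin was taken from freshly harvested tubers. The other 6 libraries, 3 each of the silenced lines 9 and 12, carried the same hairpin in independent transformation events and were used to see where line 47 differed from them. The labels number the replicates, which the study calls biological replicates. Because line 47 is 1 event, its p-values do not cover differences between transformants.

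The periderm is the skin of the tuber. Its outer layer, the phellem, is built of dead suberized cells that are produced by a meristem called the phellogen, and it limits water loss and pathogen entry. RIK proteins contain a K homology (KH) domain, a fold that binds RNA, and in maize RIK was found as a partner of ROUGH SHEATH2, a transcription factor that keeps meristem genes silent in leaves. A hairpin RNA is cut by the plant into small RNAs that direct the breakdown of matching transcripts, so its expected mark in RNA sequencing is a lower level of the targeted transcript.

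The hairpin was made from a fragment of 246 bases of the *StRIK* coding sequence, shown here because it defines which isoforms could be silenced. It was read from the study's supplementary genomic sequence of the gene, in which 12 coding exons were joined to a coding sequence of 1779 bases, and no chromosome position was available for it here. That sequence is the one of Group Phureja and not of the Désirée cDNA, and the fragment was cut out at the coding positions the study states. The primers that the study lists for the silencing construct were not found in it on either strand, so the ends of the cloned fragment were not checked. The capitals mark exon 9, of which all 118 bases lie inside the fragment. The lower case letters before it are the last 21 bases of exon 8, and those after it are the first 107 bases of exon 10.
StRIK RNAi fragment: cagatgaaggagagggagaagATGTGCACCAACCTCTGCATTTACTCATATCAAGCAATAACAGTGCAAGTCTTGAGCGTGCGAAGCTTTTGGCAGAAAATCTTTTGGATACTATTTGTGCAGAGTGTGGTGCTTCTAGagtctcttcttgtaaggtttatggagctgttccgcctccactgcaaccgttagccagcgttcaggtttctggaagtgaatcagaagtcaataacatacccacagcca

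Values are eXpress effective counts, which are estimated reads per transcript corrected for fragment length and bias, scaled here between libraries by the TMM method to the mean library size of 19876858. Total effective counts were between 18650236 and 20210598 in the Wild type and between 19372874 and 21585122 in line 47. A count of 0 allows up to 3 counts at this depth, so a group with 3 normalized effective counts or fewer in every library was taken as being at the floor, and folds against it are lower bounds that cover counting error only. On the log2 scale the line 47 libraries correlated with each other at 0.960 to 0.965 and the Wild type libraries at 0.945 to 0.965, across transcripts. Pairs of a line 47 and a Wild type library correlated at 0.942 to 0.962, so the libraries were about as alike between the groups as within the Wild type. File names of the 3 Wild type libraries and of line 47 replicates 2 and 3 carry the tag L6, and that of line 47 replicate 1 carries L7 like all libraries of lines 9 and 12. What the tag marks is not given in the sources used here. The skin identity of the samples was not checked against marker genes, because no table used here pairs these transcript identifiers with phellem or tuber flesh markers. In whole skin, fewer cells of a type and less RNA per cell cannot be told apart.

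*StRIK* itself was lower in every line 47 library than in every Wild type library, at about 50% of the Wild type level, but no isoform passed edgeR's test across all transcripts. The 3 isoforms that the fragment targets had, as a sum, 88.2, 83.2 and 82.6 CPM (counts scaled to the TMM library size) in the Wild type and 35.4, 49.5 and 48.8 CPM in line 47. The means were 84.7 ± 3.08 CPM (SD, n = 3) and 44.6 ± 7.96 CPM (SD, n = 3), so that line 47 kept 52.6% of the Wild type abundance. A two-sided exact permutation test gave p = 0.1, which is the smallest p that 3 against 3 libraries allow. Replicate 1 of line 47 had the lowest *StRIK* level, and the 2 replicates with the tag L6 alone kept 58.1%.

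Among the isoforms, PGSC0003DMT400064730 had 589, 519 and 502 normalized effective counts in the Wild type and 226, 278 and 328 in line 47, a log2 fold change (log2FC) of -0.95 ± 0.19 (SE, edgeR adjusted p = 0.188). PGSC0003DMT400064729 showed a log2FC of -1.01 ± 0.24 (edgeR adjusted p = 0.293) and PGSC0003DMT400064731 one of -0.84 ± 0.19 (edgeR adjusted p = 0.264). The isoform that lacks the targeted fragment, PGSC0003DMT400064735, had 310, 297 and 365 normalized effective counts in the Wild type and 181, 275 and 203 in line 47, with a log2FC of -0.56 ± 0.20 (edgeR adjusted p = 0.758). Its groups did not overlap either, and whether its log2FC differed from those of the targeted isoforms was not tested. Reads that fit several isoforms are divided among them by eXpress, so these 4 values depend on each other. DESeq2 called each of the 3 targeted isoforms, with adjusted p values from 0.00396 to 0.0351.

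**Figure D1:**
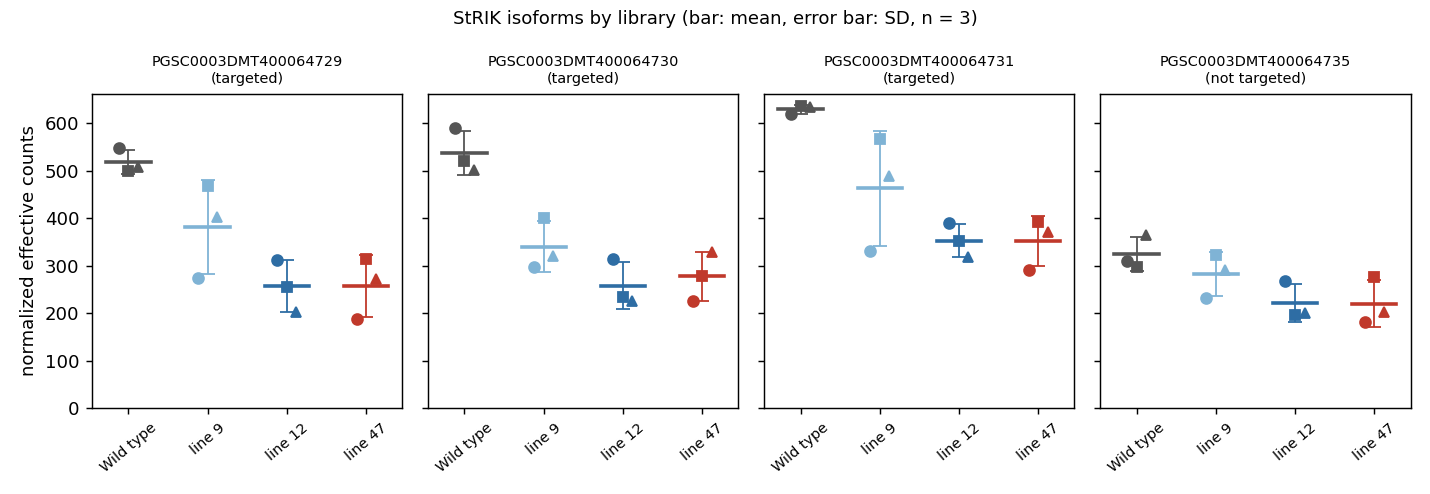
Normalized effective counts (y axis) of the 4 *StRIK* isoforms in every library of the Wild type and of lines 9, 12 and 47 (x axis). Points are libraries, horizontal bars are means and error bars are SD (n = 3). Line 47 lies below the Wild type in each isoform and overlaps with line 12 in each.

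The study lists 7 other transcripts as matching the RNAi fragment in part. Their log2FC lay between -0.74 and 0.17. The lowest was that of PGSC0003DMT400030423 (SE 1.07), with 3.32, 1.05 and 1.17 normalized effective counts in the Wild type. This transcript was at the floor in line 47, and the next lowest log2FC was -0.17. None of the 7 was called by edgeR, DESeq2 or limma-voom, and none had an unadjusted p under 0.05 in edgeR, where 0.0756% of all transcripts tested were called and 5.33% had an unadjusted p under 0.05, so these values are a description only.

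Against the Wild type, 29 of 38364 transcripts tested were called in line 47 (0.0756%) by edgeR's quasi-likelihood test with a Benjamini-Hochberg adjusted p under 0.05. Of these, 23 rose (0.06%) and 6 fell (0.0156%). An unadjusted p under 0.05 was found for 2043 transcripts (5.33%), and the median log2FC over all transcripts tested was -0.015. Of the 29, 21 were in the list of 101 differentially expressed transcripts that the study drew from libraries that include these 6, so membership of that list is not independent evidence of a change. The count moved with single libraries. Leaving out Wild type replicate 1 or 2 gave 13 or 14 calls, and leaving out line 47 replicate 1, 2 or 3 gave 54, 17 or 12. With replicate 1 as the only line 47 library it was 0 (edgeR, with 1399 transcripts at an unadjusted p under 0.05), where the lone library is assumed to vary like the other groups.

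**Figure D2:**
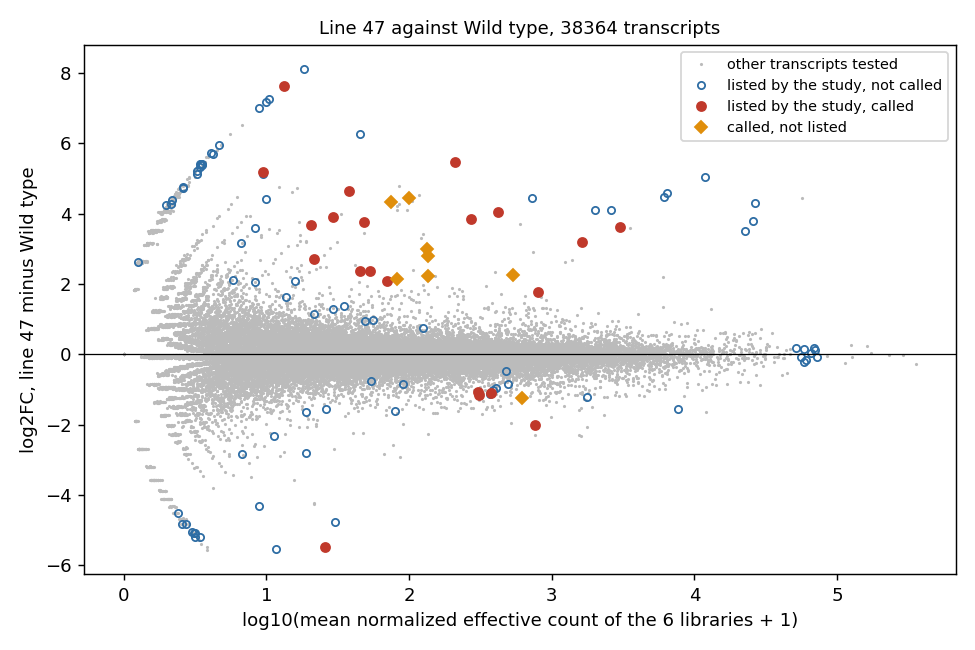
Each point is 1 of 38364 transcripts, by the log10 of its mean normalized effective count in the 6 libraries (x axis) and its log2FC of line 47 minus Wild type (y axis). The 21 listed transcripts that were called are filled circles, listed transcripts that were not called are open circles and the 8 called transcripts outside the list are diamonds. Called transcripts lie mostly above 0, and 9 listed transcripts of high abundance lie close to 0 at the right.

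Over the study's list, 100 transcripts were tested, of which 16 rose, 5 fell and 79 did not pass. Every line 47 library lay above every Wild type library for 45 of the 100 and below for 27, against 5.56% and 5.43% of all transcripts tested. The study chose the list on libraries that include the 6 compared here. An excess over all transcripts therefore follows from that choice and is no separate evidence for the list. The median log2FC of the list was 2.08, or 0.71 when transcripts with a group at the floor were set to their bound. Of the 79 that did not pass, 38 had at least 1 of the groups at the floor. By the study's own categories, RNA metabolism and splicing had 3 of 12 higher and 0 lower, transposable elements 2 of 6 higher and 2 lower, stress 2 of 12 higher and 0 lower, proteolysis 3 of 5 higher and 0 lower, and signaling 3 of 12 higher and 3 lower. In acyl lipid metabolism 0 of 4 and in metabolism 0 of 11 passed in edgeR, with 3 and 4 of them at an unadjusted p under 0.05. DESeq2 called 1 and 3 of these transcripts, and limma-voom 0 in each. Of all 38364 transcripts tested, edgeR called 0.0756%, and 5.33% had an unadjusted p under 0.05. DESeq2 called 205 of them and limma-voom 27.

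The transcripts that rose among RNA metabolism genes were 3 RNase H family proteins. RNase H enzymes cut the RNA strand of an RNA:DNA hybrid, and the same domain is also part of retroelement polyproteins. PGSC0003DMT400063700 had 23.8, 87.8 and 32.2 normalized effective counts in the Wild type and 754, 744 and 875 in line 47. Its level rose 16.5-fold, with a log2FC of 4.03 ± 0.38 (SE, edgeR adjusted p = 0.00116), and without Wild type replicate 2 the log2FC was 4.81. PGSC0003DMT400073611 was already abundant in the Wild type, with 217, 438 and 429, and had 1183, 1287 and 1250 in line 47, a log2FC of 1.78 ± 0.23 (edgeR adjusted p = 0.0115). PGSC0003DMT400016670 had 13.7, 41.2 and 24.3 in the Wild type against 125, 120 and 91 in line 47, a log2FC of 2.07 ± 0.31 (edgeR adjusted p = 0.0263). In these transcripts no line 47 library came near the Wild type range, and Wild type replicate 1 was the lowest library of the 6. The call of PGSC0003DMT400073611 was lost without line 47 replicate 2 or 3 (adjusted p from 0.0515 to 0.0595), and that of PGSC0003DMT400016670 without any of 7 single libraries, which were Wild type replicates 1 and 3, line 12 replicates 2 and 3 and all 3 of line 47 (0.0593 to 0.102). Of the other RNase H members, PGSC0003DMT400063698 had 0 in every Wild type library and 32.9, 10.8 and 10.3 in line 47 (edgeR adjusted p = 0.102), and PGSC0003DMT400022247 had lower levels in line 47, with 37.9, 46.4 and 35.5 against 63.9, 70.2 and 66.9 (edgeR adjusted p = 0.902).

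Transcripts of transposable elements moved in both directions. Transposases cut and paste DNA elements, whereas retrotransposons, including LINE elements, copy themselves through an RNA intermediate. The retrotransposon protein PGSC0003DMT400041204 had 14, 63.3 and 28.1 normalized effective counts in the Wild type and 449, 479 and 595 in line 47. It rose 14.4-fold, with a log2FC of 3.85 ± 0.39 (SE, edgeR adjusted p = 0.0018). The transposase PGSC0003DMT400003803 had 4.53, 13.2 and 2.24 in the Wild type and 94.7, 82.5 and 87.5 in line 47, a log2FC of 3.75 ± 0.45 (edgeR adjusted p = 0.00765). Another transposase went the opposite way. PGSC0003DMT400039369 had 939, 1505 and 1216 in the Wild type and 305, 294 and 313 in line 47, so that it fell to 24.9% of the Wild type level (log2FC -2.01 ± 0.18, edgeR adjusted p = 0.00097). The LINE-type retrotransposon PGSC0003DMT400092517 had 59.8, 45.8 and 39.8 in the Wild type and was at the floor in line 47, with 1.76, 0 and 0.726. It was at least 16.2-fold lower in line 47, taking the floor of 3 counts per library (edgeR adjusted p = 0.00765). Without Wild type replicate 2 the log2FC was 4.60 for PGSC0003DMT400041204 and 4.77 for PGSC0003DMT400003803. Without Wild type replicate 1 the call of PGSC0003DMT400003803 was lost (adjusted p = 0.074), and without Wild type replicate 1 or line 47 replicate 3 that of PGSC0003DMT400092517 (0.0611 to 0.0689).

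Among stress genes, the transcripts that rose were a transcription factor and a storage protein. PGSC0003DMT400061541 encodes a dehydration responsive element binding protein whose closest Arabidopsis relative, DREB2A, switches on genes under drought and heat. It had 2.26, 2.19 and 4.56 normalized effective counts in the Wild type and 80.2, 42.4 and 91.1 in line 47, a 23.7-fold rise (log2FC 4.64 ± 0.60, SE, edgeR adjusted p = 0.0122). The 11S globulin isoform 4, PGSC0003DMT400026705, a relative of seed storage proteins, had 6.18, 0.854 and 0.895 in the Wild type and 29.5, 38.8 and 41.6 in line 47 (log2FC 3.68 ± 0.54, edgeR adjusted p = 0.0245). Both started from very low Wild type levels, and limma-voom called neither (adjusted p = 0.238 and 0.101). Without Wild type replicate 1, the highest of its group, the log2FC of PGSC0003DMT400026705 was 5.01. The first call was lost when any 1 Wild type library or line 47 replicate 3 was left out (adjusted p from 0.0512 to 0.114), and the second without any of 6 libraries, namely replicates 2 and 3 of the Wild type, of line 12 and of line 47 (0.0507 to 0.169). The inward rectifying K+ channel PGSC0003DMT400024872, related to the Arabidopsis guard cell channel KAT1, had 1.53, 0 and 0 in the Wild type and 12.3, 20.4 and 16.4 in line 47. Its groups did not overlap, but it did not pass the test (log2FC 5.13 ± 0.86, edgeR adjusted p = 0.0759). Counting the channel, 8 further stress transcripts that are neither rRNA-like nor plastid-encoded gave 0 calls by edgeR and by limma-voom and 4 by DESeq2, and 6 of them had an unadjusted p under 0.05. Of these 8, 3 had a log2FC above 0 and 5 below. Over all transcripts tested, edgeR called 0.0756%, and 5.33% had an unadjusted p under 0.05. The 8 come from a list chosen on these libraries, so an excess over all transcripts is no separate evidence.

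In the proteolysis group, every transcript that rose resembles a protease inhibitor by its Arabidopsis match. Kunitz proteins inhibit serine proteases and accumulate in potato after wounding and attack, and cystatins inhibit cysteine proteases. PGSC0003DMT400026262 had 414, 564 and 378 normalized effective counts in the Wild type and 8428, 4741 and 3535 in line 47, which made it the most abundant of the listed transcripts that rose (log2FC 3.62 ± 0.53, SE, edgeR adjusted p = 0.0245). The related PGSC0003DMT400026261, annotated as Nb cell death marker, had 190, 269 and 510 in the Wild type and 3811, 2894 and 2135 in line 47 (log2FC 3.19 ± 0.46, edgeR adjusted p = 0.0245). In both, line 47 replicate 1 was highest and replicate 3 lowest, and reads may have been divided between them if their sequences are alike, which was not tested. The cystatin-like PGSC0003DMT400024552 had 5.18, 1.24 and 3.95 in the Wild type and 57.3, 46.1 and 54.5 in line 47 (log2FC 3.89 ± 0.55, edgeR adjusted p = 0.0231), and limma-voom did not call it (adjusted p = 0.101). Each of these calls was lost without Wild type replicate 1 or 2 or line 47 replicate 2 or 3. The cystatin-like call was also lost without Wild type replicate 3, the Nb cell death marker without line 12 replicate 2, and PGSC0003DMT400026262 without either of those. Adjusted p values of the lost calls were between 0.0507 and 0.219.

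Signaling genes split by family. Each of the 3 transcripts annotated as signal transducer, whose Arabidopsis match is in the NPH3 family named for a protein needed for phototropism, rose. PGSC0003DMT400047866 had 21.7, 14.9 and 14.2 normalized effective counts in the Wild type and 87, 74.1 and 101 in line 47 (log2FC 2.35 ± 0.26, SE, edgeR adjusted p = 0.0039). PGSC0003DMT400047867 rose from 14.4 ± 3.58 to 73.9 ± 6.61 (SD, n = 3, edgeR adjusted p = 0.0168) and PGSC0003DMT400047864 from 5.47 ± 0.616 to 35.9 ± 9.79 (SD, n = 3, edgeR adjusted p = 0.0149), but limma-voom called neither (adjusted p = 0.056 and 0.107). By contrast, the transcripts annotated as transducin, a name given to WD40 repeat proteins that serve as scaffolds for protein complexes, were lower in line 47. PGSC0003DMT400054498 had 466, 431 and 378 in the Wild type and 172, 212 and 190 in line 47, and fell to 45% of the Wild type (log2FC -1.15 ± 0.15, edgeR adjusted p = 0.0149). PGSC0003DMT400054500 and PGSC0003DMT400054501 fell to 46.2% and 47.2% (edgeR adjusted p = 0.0263 and 0.0245), while PGSC0003DMT400054499 was at 45.9% and did not pass in edgeR (adjusted p = 0.0524), while DESeq2 (adjusted p = 1.23e-05) and limma-voom (adjusted p = 0.0472) called it. The members of each family have neighbouring identifiers, and eXpress may have divided shared reads among them, so they are not independent observations. Each transducin call was lost without Wild type replicate 1 or 2 or any 1 line 47 library, and in PGSC0003DMT400054501 also without line 12 replicate 2 and in PGSC0003DMT400054500 without Wild type replicate 3 (adjusted p from 0.0515 to 0.233). PGSC0003DMT400047864 lost its call without any 1 Wild type library or line 47 replicate 3, and PGSC0003DMT400047867 without any of these or line 47 replicate 2 (0.0515 to 0.123), whereas that of PGSC0003DMT400047866 held.

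Of the listed transcripts without a known function, 3 rose. PGSC0003DMT400023873 had 1.43, 22.1 and 4.28 normalized effective counts in the Wild type and 402, 416 and 415 in line 47, a 44.3-fold rise (log2FC 5.47 ± 0.52, SE, edgeR adjusted p = 0.00116). Wild type replicate 2 was the highest of its group, and without it the log2FC was 7.24. PGSC0003DMT400024550 had 0 in every Wild type library and 22.9, 20.9 and 30.1 in line 47, which is at least 8.21-fold higher (edgeR adjusted p = 0.0149). PGSC0003DMT400041194 had 0, 1.14 and 0 against 16.7, 21.6 and 11.7, which is at least 5.55-fold higher (edgeR adjusted p = 0.0245), though limma-voom did not call it (adjusted p = 0.143). Leaving out Wild type replicate 1 or 2 or line 47 replicate 2 or 3 ended both of these last calls, and for PGSC0003DMT400041194 also Wild type replicate 3 or line 12 replicate 2 (adjusted p from 0.0507 to 0.178). Gene of unknown function PGSC0003DMT400046438, singled out here after its values were seen, had 74.3, 43.1 and 50.9 in the Wild type and 2.6, 1.32 and 2.12 in line 47 without passing the test (edgeR adjusted p = 0.119).

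**Figure D3:**
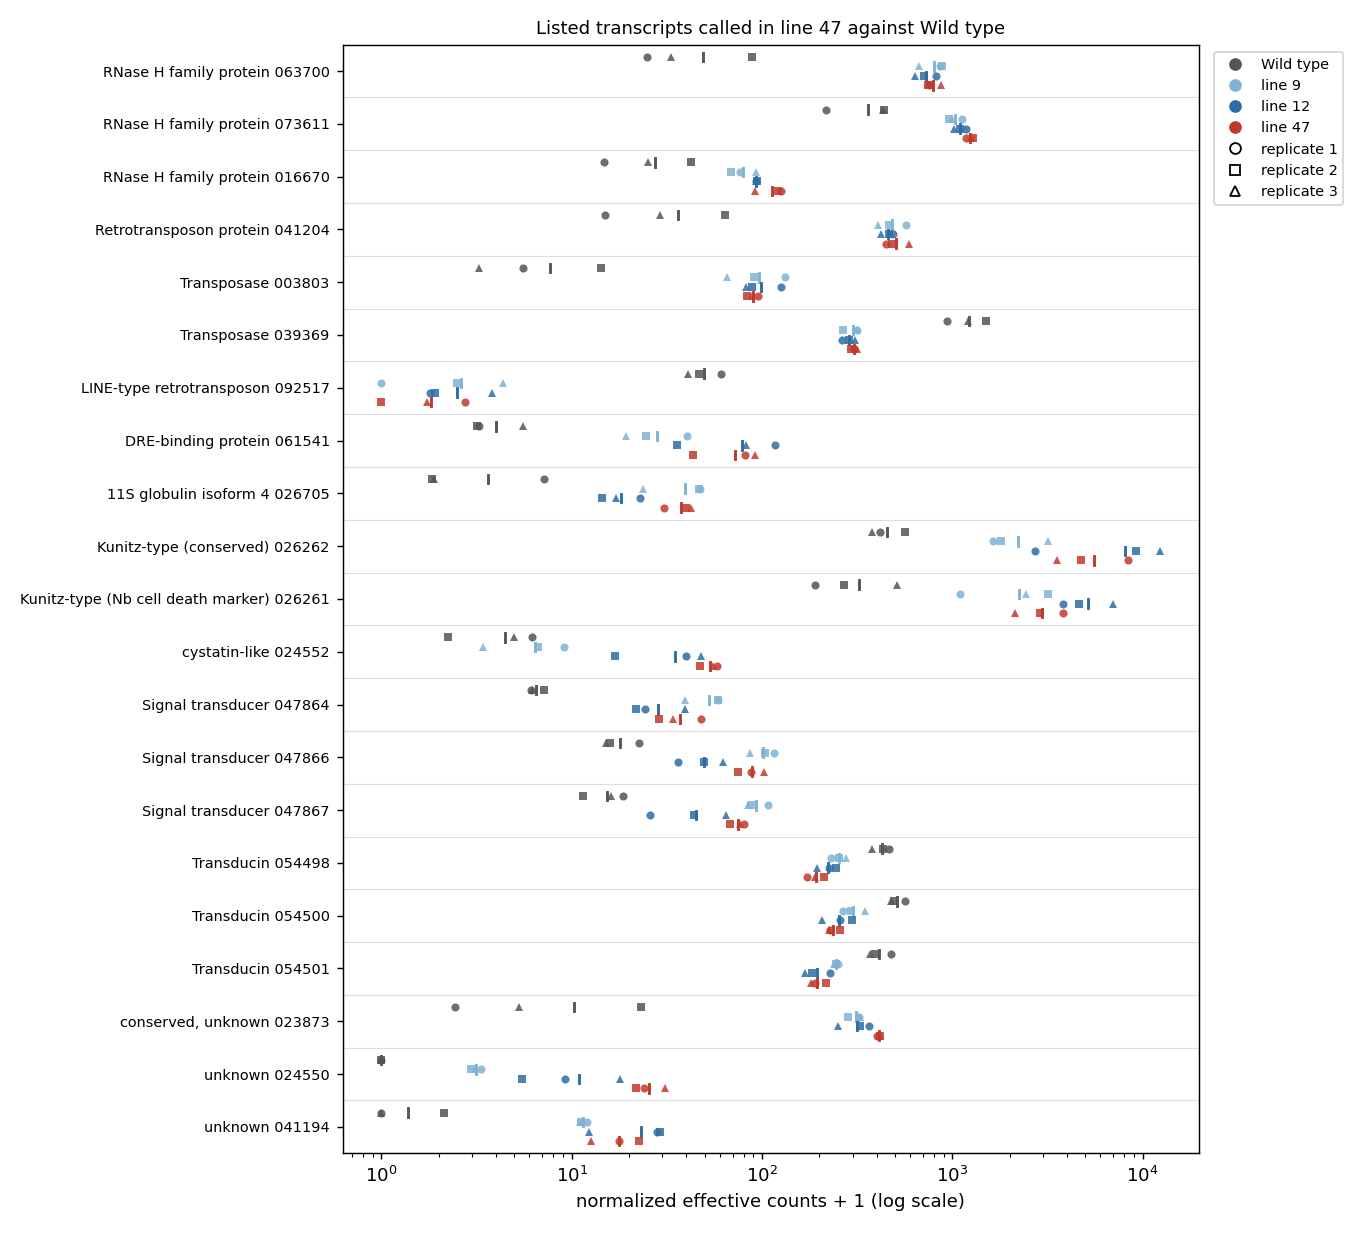
Normalized effective counts + 1 on a log scale (x axis) of the 21 listed transcripts called in line 47 (rows, with the last 6 digits of the identifier), for every library. Symbols give the replicate, colours the line, and short vertical bars the group means. Line 47 is apart from the Wild type in each row and overlaps with lines 9 and 12 in 19 of the 21, as it did for 94.5% of all transcripts tested.

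Wild type replicate 2 was the highest Wild type library for 9 of the 16 listed transcripts that rose, replicate 1 for 5 and replicate 3 for 2. At the other end of abundance, 9 listed transcripts had a Wild type mean above 40000. This group, singled out after its values were seen, held the 25 kDa protein dehydrin, metallothionein type 2, D12 oleate desaturase, a pair of phenylalanine ammonia-lyases, catalase, peroxidase, phospho-2-dehydro-3-deoxyheptonate aldolase 1 and polyubiquitin. Their libraries had between 36101 and 85948 normalized effective counts, the groups overlapped in 9 of 9, and the ratio of line 47 to the Wild type was between 0.852 and 1.12 (log2FC from -0.23 to 0.17, SE from 0.20 to 0.35, edgeR adjusted p = 1 in each). Such overlap is common, as every line 47 library lay above every Wild type library in 5.56% of all transcripts tested and below in 5.43%. Phenylalanine ammonia-lyase opens the phenylpropanoid pathway that supplies the aromatic part of suberin, and oleate desaturase makes linoleic acid.

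In the called and listed transcripts, line 47 overlapped with the libraries of lines 9 and 12 in 19 of 21, against 94.5% of all transcripts tested, so the overlap is not particular to them. None of the 100 listed transcripts tested was called when line 47 was compared with the mean of lines 9 and 12 in edgeR, where 0.0261% of all transcripts tested were called. An unadjusted p under 0.05 was found for 22 of the 100, against 10.2% of all, and DESeq2 called 14 and limma-voom 2. The 22 include 9 rRNA-like transcripts, described below, the ribulose bisphosphate carboxylase large chain and ORF107c. These were high in line 47 replicates 2 and 3 but not in replicate 1. Among the called and listed transcripts, the RNase H PGSC0003DMT400063700 had a median of 768 normalized effective counts in lines 9 and 12 (range 639 to 883). The retrotransposon protein PGSC0003DMT400041204 had one of 464 (range 408 to 568) and the transposase PGSC0003DMT400039369 one of 297 (range 261 to 315). All 3 ranges hold the line 47 mean, and the differences were 0.05 ± 0.28, 0.12 ± 0.29 and 0.06 ± 0.15 on the log2 scale (SE). Line 47 shares the Wild type libraries with any comparison of the other lines, so the levels are given side by side only. The study also drew its list from libraries of lines 9, 12 and 47 together against the Wild type. That choice favours transcripts with like levels in the 3 lines, so the lack of calls is no separate evidence that the lines agree. The cystatin-like PGSC0003DMT400024552 had 8.1, 5.62 and 2.42 in line 9 and 39.1, 15.8 and 47 in line 12, with line 47 higher by a log2FC of 1.97 ± 0.38 that did not pass (edgeR adjusted p = 0.136).

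A small set of transcripts differed between line 47 and the mean of the other silenced lines. Against the mean of lines 9 and 12, 10 of 38364 transcripts were called (0.0261%), of which 7 were higher (0.0182%) and 3 lower (0.00782%) in line 47, and an unadjusted p under 0.05 was found for 3905 (10.2%). Leaving out any 1 of line 9 replicate 2, line 12 replicate 3 and line 47 replicates 2 and 3 gave 5 calls, line 12 replicate 2 left 6, and line 47 replicate 1 left 49. None of the 10 is in the study's list, whose choice over the 3 lines together works against such transcripts. No table used here gives them a name. Among them, PGSC0003DMT400003521 and PGSC0003DMT400003522 have neighbouring identifiers. So do PGSC0003DMT400024248 and PGSC0003DMT400024249, and PGSC0003DMT400056808 and PGSC0003DMT400056809. Reads may have been divided between such neighbours, which was not tested, so they may not be independent observations. PGSC0003DMT400024248 had 167, 131 and 121 normalized effective counts in line 47 against 6.34, 7.65 and 6.26 in the Wild type, 10.9, 15.9 and 2.91 in line 9 and 8.43, 4.83 and 6.72 in line 12. It was higher in line 47 than in the other lines by a log2FC of 4.05 ± 0.31 (SE, edgeR adjusted p = 0.000256) and than in the Wild type by 4.33 ± 0.41 (edgeR adjusted p = 0.00116). PGSC0003DMT400003522 had 222, 279 and 204 in line 47, 20.4, 26.1 and 43.1 in the Wild type, 53.1, 54.5 and 69.6 in line 9 and 28.1, 29.8 and 34.5 in line 12. Its log2FC was 2.46 ± 0.20 against the other lines (edgeR adjusted p = 0.000256) and 2.98 ± 0.25 against the Wild type (edgeR adjusted p = 0.00097).

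Some other calls of that comparison rested on the values of line 9 or line 12. PGSC0003DMT400032741 had 23.6, 24.2 and 15.7 in line 47 and 25.8, 16.2 and 18.1 in the Wild type, while line 12 had 192, 177 and 152, so that it was called as lower in line 47 (log2FC -1.68 ± 0.22, SE, edgeR adjusted p = 0.0309) and did not pass against the Wild type (edgeR adjusted p = 1). By contrast, PGSC0003DMT400071057 had 29, 30 and 22 in line 47, below every other library of the series, with 43.7, 41.8 and 60.6 in the Wild type and a range of 52.4 to 110 in lines 9 and 12 (log2FC -1.62 ± 0.22, edgeR adjusted p = 0.0309). The first of these calls was lost without any 1 of 8 libraries, which were all of lines 9 and 12 and line 47 replicates 2 and 3, and the second without any 1 of 9, which were replicates 1 and 2 of the Wild type and of line 9, replicates 2 and 3 of line 12 and all of line 47 (adjusted p from 0.0508 to 0.468).

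Outside the study's list, 7 transcripts rose and 1 fell against the Wild type, with a log2FC of 2.13 to 4.45 for those that rose. For 5 of the 7, every line 47 library also lay above every library of lines 9 and 12, as in 2.67% of all transcripts tested. The 7 were chosen as high in line 47 and as absent from the study's list. Both steps favour such values, so an excess over all transcripts is no separate evidence. The 5 include PGSC0003DMT400003521 with PGSC0003DMT400003522 and PGSC0003DMT400024248 with PGSC0003DMT400024249. These have neighbouring identifiers and may not be independent observations. PGSC0003DMT400096877 followed another pattern. It had 31, 42.2 and 28.7 in the Wild type and 203, 308 and 202 in line 47 (log2FC 2.78 ± 0.23, SE, edgeR adjusted p = 0.00097), with 283, 253 and 257 in line 9 and 34, 24.2 and 33.2 in line 12, so line 12 resembled the Wild type and line 9 resembled line 47. Its call against lines 9 and 12 (log2FC 1.40 ± 0.18, edgeR adjusted p = 0.0198) was lost without any 1 of replicates 2 and 3 of lines 9, 12 and 47 (adjusted p from 0.0508 to 0.121). The transcript that fell was PGSC0003DMT400007730, with 998, 848 and 744 in the Wild type and 332, 368 and 384 in line 47 (log2FC -1.26 ± 0.19, edgeR adjusted p = 0.0303). Its line 47 libraries lay below all 6 libraries of lines 9 and 12 (602 to 889) as well, where the difference did not pass (edgeR adjusted p = 0.118). Its call against the Wild type was lost without any 1 of 7 libraries, which were Wild type replicates 1 and 2, line 12 replicates 2 and 3 and all 3 of line 47 (0.0678 to 0.202).

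Some listed transcripts were found almost only in line 47 without passing edgeR's test in either comparison. The pair given here was singled out after its values were seen. The arabinogalactan protein PGSC0003DMT400009661, of a family of cell wall glycoproteins, had 34.3, 55.6 and 14.1 normalized effective counts in line 47, 0 in every Wild type and line 9 library, and 5.93, 0 and 0 in line 12. This is at least 11.6-fold above the Wild type floor (edgeR adjusted p = 0.25, and 0.144 against lines 9 and 12). PGSC0003DMT400093030, a conserved gene of unknown function, had 15.6, 28 and 12.9 in line 47 and 0 in the other 9 libraries, at least 6.27-fold above the Wild type floor (edgeR adjusted p = 0.232, and 0.118 against lines 9 and 12). DESeq2 and limma-voom called it against the Wild type (adjusted p = 0.00347 and 0.0131). Of the 100 listed transcripts, 5 had every line 47 library above every library of lines 9 and 12, and 0 below, against 2.67% and 2.86% of all transcripts tested.

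**Figure D4:**
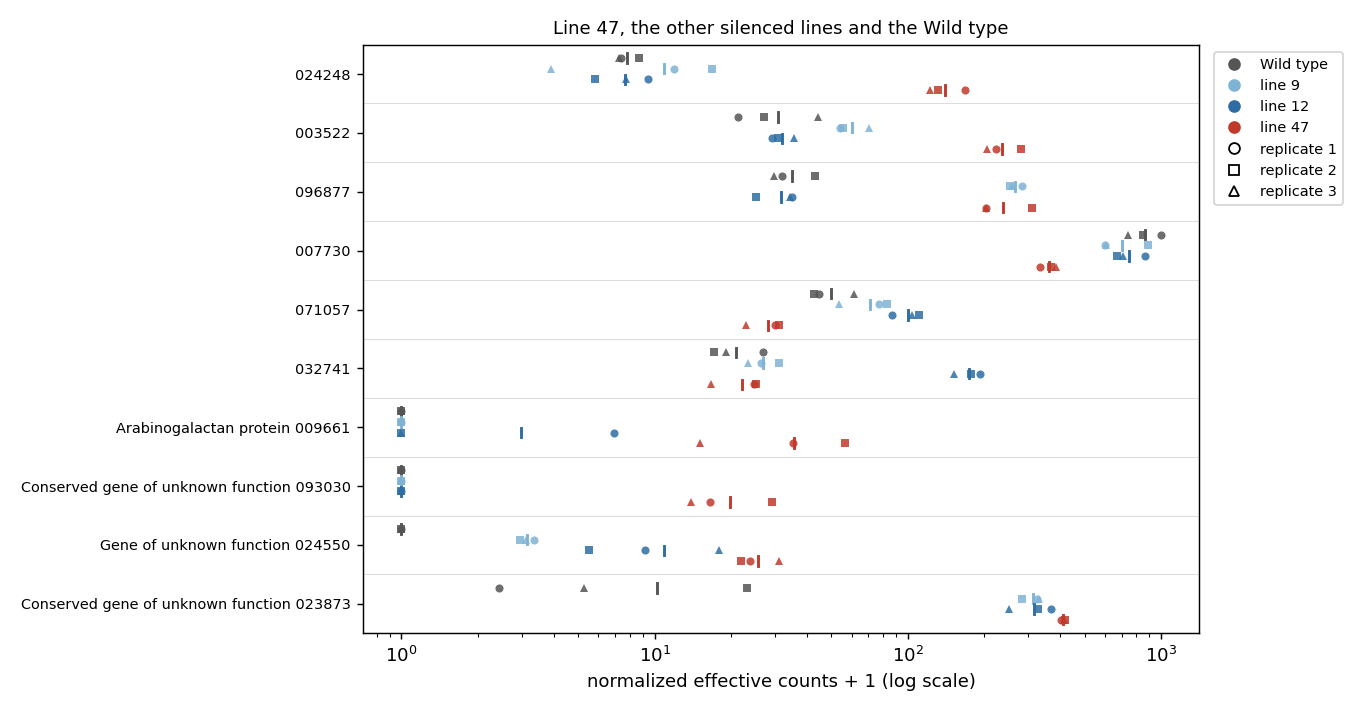
Normalized effective counts + 1 on a log scale (x axis) in every library for 10 transcripts (rows, with the last 6 digits of the identifier and the study's annotation where it lists one). Symbols give the replicate, colours the line, and short vertical bars the group means. PGSC0003DMT400024248 and PGSC0003DMT400003522 are high in line 47 alone, PGSC0003DMT400096877 also in line 9, and PGSC0003DMT400032741 is high in line 12 alone.

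The replicates of line 47 did not behave alike for a group of rRNA-like transcripts. Of the study's list, 6 transcripts have annotations that are typical of reads from ribosomal RNA genes, such as rRNA intron-encoded homing endonuclease and senescence-associated protein. The others are annotated as conserved genes of unknown function, of which 2 were included for their Arabidopsis match, a gene model within the ribosomal DNA, and 1 because its counts followed those of the rest. Homing endonucleases are enzymes encoded within introns, but such annotations in plant gene models often lie on ribosomal DNA. Their sum was 12135 normalized effective counts in line 47 replicate 1 and 346235 and 233634 in replicates 2 and 3, against 9456, 12034 and 14726 in the Wild type and 9462 to 32270 in lines 9 and 12. They took 0.0595% of the total counts of replicate 1, 1.7% of replicate 2 and 1.27% of replicate 3, against 0.0476% to 0.0758% in the Wild type. Replicate 1 lay within the Wild type range for 9 of the 9 transcripts. The lower of replicates 2 and 3 was 14.6 to 36.5 times as high as replicate 1, 11 to 28 times the highest Wild type library and 5.48 to 13 times the highest library of lines 9 and 12.

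As an example, the rRNA intron-encoded homing endonuclease PGSC0003DMT400094705 had 663, 472 and 432 normalized effective counts in the Wild type and 441, 18360 and 16082 in line 47, and the senescence-associated protein PGSC0003DMT400080875 had 2452, 1944 and 3365 against 3125, 90560 and 59039. The ribulose bisphosphate carboxylase large chain PGSC0003DMT400083063, which is encoded in the chloroplast genome, had 2.52, 0 and 1.28 in the Wild type and 2.56, 124 and 136 in line 47 (edgeR adjusted p = 0.25), and ORF107c PGSC0003DMT400085260 had 0 in every Wild type library and a mean of 15.6 ± 12.6 in line 47 (SD, n = 3), with 1.61 in replicate 1 (edgeR adjusted p = 0.318). With all 3 replicates, the 9 rRNA-like transcripts had a log2FC of 3.49 to 5.03 with an SE of 0.80 to 0.99, and none was called by edgeR (adjusted p from 0.181 to 0.253) or limma-voom, while DESeq2 called all 9 and each had an unadjusted p under 0.05 in edgeR. Without replicate 1, each of the 9 was called (edgeR adjusted p from 6.69e-05 to 0.00205), and with replicate 1 alone, 6 of the 9 had a log2FC below 0. The replicates that were high in these transcripts are the ones that carry the tag L6, which the Wild type libraries also carry without being high. Within line 47 the tag and the replicate cannot be told apart, and the part of the tag was not tested. The part of rRNA in any other difference of line 47 was not tested beyond leaving out these libraries or transcripts.

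**Figure D5:**
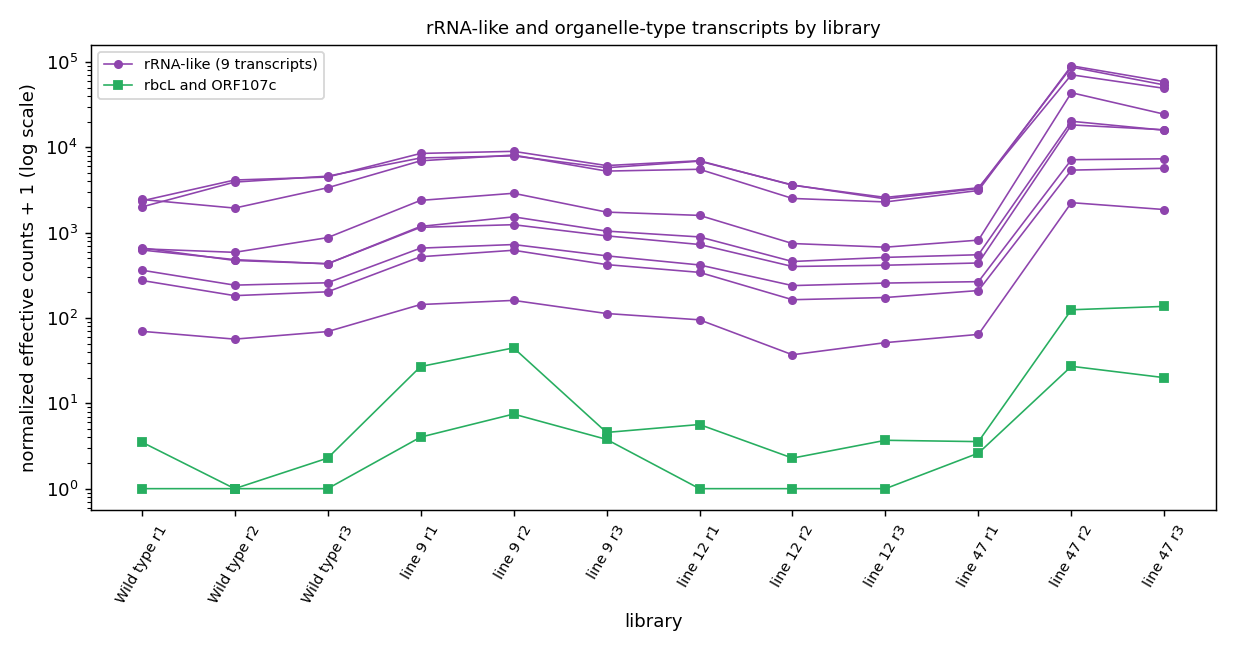
Normalized effective counts + 1 on a log scale (y axis) in the 12 libraries (x axis) for the 9 rRNA-like transcripts (circles) and for the ribulose bisphosphate carboxylase large chain and ORF107c (squares). Line 47 replicates 2 and 3 are above all other libraries in each, and replicate 1 is at the Wild type level for the 9 rRNA-like transcripts.

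The fit without line 47 replicate 1, which sets the Wild type against the 2 line 47 libraries of the same tag, gave 54 calls, 52 higher and 2 lower, of which 23 were also among the 29. The 31 further calls were all higher in line 47 and consisted of the 9 rRNA-like transcripts, the ribulose bisphosphate carboxylase large chain and 21 transcripts outside the study's list. Replicate 1 was within the Wild type range in 25 of the 31, and a low value in it follows from how the 31 were chosen. The changes described above were mostly kept within the tag. Of the 21 listed transcripts called with all libraries, 17 were also called without replicate 1, which were 15 of the 16 that rose and 2 of the 5 that fell. The calls that were lost were those of the RNase H PGSC0003DMT400016670 (log2FC 1.99, edgeR adjusted p = 0.0727) and of the transducins PGSC0003DMT400054498, PGSC0003DMT400054500 and PGSC0003DMT400054501 (log2FC -1.07, -1.08 and -1.05, edgeR adjusted p = 0.0593, 0.115 and 0.102), whose log2FC stayed close to those with all libraries.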

How the data were processed

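Periderm RNA was sequenced in 12 libraries, and the 6 of line 47 and the Wild type were compared. The authors prepared TruSeq libraries, sequenced them on an Illumina HiSeq instrument, checked the reads with FastQC 0.11.2 and aligned them with Bowtie 2 to the transcriptome of Group Phureja. They deposited eXpress 1.5.1 effective counts, an estimated count for each transcript with no scaling between samples, and used baySeq for their own comparison. For the fits, these values were rounded and a transcript was kept if its counts in the 12 libraries summed to at least 10. The model had 4 groups and was fitted with edgeR 4.0.16 in R 4.3.3 (TMM, glmQLFit, glmQLFTest), with Benjamini-Hochberg adjustment over all transcripts tested and a threshold of 0.05. SE were derived from the log2FC and its F statistic. Exact permutation tests were run in Python 3.11.15. The fit was repeated with DESeq2 1.42.0, with limma-voom of limma 3.58.1, with RLE scaling, with other filters, on the 6 libraries alone, with a replicate block, with the file tag as a term, without rRNA-like transcripts and without each library in turn. In counts simulated with 200 changed transcripts among 37961 tested, 3 of 139 edgeR calls were false. Of the transcripts changed by a log2FC of 1, 2 and 3, edgeR found 15.2%, 89.1% and 98.6%. These rates describe the simulated counts only. They were not tested for transcripts with a group at the floor, as in 41 of the 100 listed. Nor were they tested for replicates as unlike as those of the rRNA-like transcripts.

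Names and categories were taken from the study's table of differentially expressed transcripts, which rests on these libraries. The values of that table were not used. The RefSeq gene table held 0 of the identifiers. Transcripts were named if they were *StRIK* isoforms, were listed and called, were followed by RT-qPCR in the study, were rRNA-like or plastid-type, or belonged to the transducin, signal transducer or Kunitz sets. For each comparison up to 2 called transcripts outside the list were named in each direction, by the lowest p. PGSC0003DMT400003521, PGSC0003DMT400024249, PGSC0003DMT400056808 and PGSC0003DMT400056809, also called and outside the list, were named for their neighbouring identifiers and after their values were seen. PGSC0003DMT400009661, PGSC0003DMT400093030, PGSC0003DMT400046438, PGSC0003DMT400063698, PGSC0003DMT400022247 and the 9 abundant transcripts were named after their values were seen. The named transcripts and the lists were chosen with earlier results of these data known.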

Additional observations from a re-analysis of the deposited data

Results flagged for a closer look

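For 5 transcripts described above, the effect of line 47 differed from that of the other silenced lines by the direct test of line 47 against the mean of lines 9 and 12 (edgeR quasi-likelihood test, Benjamini-Hochberg adjusted). The log2FC of this difference was 4.05 for PGSC0003DMT400024248, 2.46 for PGSC0003DMT400003522, 1.40 for PGSC0003DMT400096877, -1.68 for PGSC0003DMT400032741 and -1.62 for PGSC0003DMT400071057. In the first 2 and the last, line 47 stood apart from all other libraries, whereas line 12 stood apart from line 9 in PGSC0003DMT400096877 and PGSC0003DMT400032741. The last 3 of these calls were lost with the file tag as a term (adjusted p = 0.739 each), and lines 9 and 12 all carry the tag L7, as does line 47 replicate 1. Groups of 3 libraries are too small for the search for single outlying samples.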

How the results depend on the processing

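No listed or unlisted call of line 47 against the Wild type held with line 47 replicate 1 alone, an alternative chosen after seeing the data that gave 0 calls against the Wild type and 2 against lines 9 and 12. With this arm of 1 library the log2FC stayed close, for example 3.67 for PGSC0003DMT400041204, 3.96 for PGSC0003DMT400063700, 5.44 for PGSC0003DMT400023873 and 2.34 for PGSC0003DMT400047866. Under every one of the other alternatives run, 8 of the 25 named calls against the Wild type passed the threshold, 5 of them in the study's list (PGSC0003DMT400063700, PGSC0003DMT400041204, PGSC0003DMT400039369, PGSC0003DMT400047866 and PGSC0003DMT400023873). The count of 29 against the Wild type became 205 with DESeq2 (115 higher and 90 lower, all 29 among them) and 54 with the file tag as a term, and was between 12 and 54 when 1 library was left out. The count of 10 against lines 9 and 12 became 310 with DESeq2 (116 higher and 194 lower), 18 with limma-voom, 5 with the replicate block and 4 with the file tag as a term, and was between 5 and 49 when 1 library was left out. Of the 25 named calls against the Wild type, fitting the 6 libraries only ended 10, the block 9, limma-voom 6 and the tag term 5. As replicate 1 is the only line 47 library with L7, the tag term sets replicates 2 and 3 against the Wild type and replicate 1 alone against lines 9 and 12. The replicate block gave 20 calls against the Wild type, 19 of them among the 29, and ended 3 named calls against lines 9 and 12, those of PGSC0003DMT400096877, PGSC0003DMT400032741 and PGSC0003DMT400071057 (adjusted p from 0.051 to 0.159). Deviations of same-numbered Wild type and line 47 libraries correlated at 0.24, -0.20 and 0.15, and those of differently numbered libraries at -0.44 to 0.37. Line 47 replicate 1 correlated best with Wild type replicate 2 (0.37). With 3 libraries in a group, these values cannot decide whether the numbers pair the samples. For *StRIK*, the blocked exact test over 3 differences gave p = 0.25, its smallest possible value, at 52.6% of the Wild type, and the other settings gave 49.7% to 58.1%. With replicate 1 alone, the log2FC of the rRNA-like transcripts turned to -0.02 (PGSC0003DMT400071451), -0.07 (PGSC0003DMT400085242), -0.25 (PGSC0003DMT400094705), -0.11 (PGSC0003DMT400091537), -0.09 (PGSC0003DMT400096705) and -0.13 (PGSC0003DMT400092742). The other settings left the 2 counts within 1.5 times their value. Transcripts with fewer than about 3 counts in a group allow bounds only. Apart from what the left-out libraries show, the cause of these changes was not tested.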
